A study of Mus musculus with 6 samples.

Results

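CD4 T cells among the cells of mouse pancreatic islets were examined by single-cell RNA-Seq, in which a unique molecular identifier (UMI) lets every captured RNA molecule be counted once. A barcode, the tag of 1 droplet taken as 1 cell, was a member when it had 500 or more detected genes, at most 10% of UMIs on mitochondrially encoded genes, and *Ins1* and *Ins2* together under 25% of UMIs. It also had at least 2 UMIs of *Cd3d*, *Cd3e*, and *Cd3g* together, at least 1 UMI of *Cd4*, and no UMI of *Cd8a*, *Cd8b1*, Cd79a, or *Cxcr6*. This rule was met by 329 of 43445 barcodes (0.757%), or 1.22% of the 27004 barcodes within the limits on detected genes and mitochondrial UMIs, the kept barcodes. Since the rule used measured values, the genes and limits in it describe the cells and were not tested.

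The islets came from 3 WT and 3 β14-3-3ζ-KO mice of strain C57/BL6 aged 12 to 14 weeks, with 1 library per mouse. KO mice (beta14-3-3 knock out) carried LoxP sites around exon 4 of *Ywhaz*, the gene of 14-3-3ζ, and Ins1-CreThor, a Cre placed in the *Ins1* gene that acts in β cells. The WT (wild type) mice were littermates that also carried Cre, and the labels name no treatment. Islets recovered overnight in culture, were dispersed, and were depleted of dead cells, and about 9600 cells per mouse were loaded. In insulin-rich barcodes (25% or more insulin UMIs), *Ywhaz* stood at 118, 162, and 156 CPM (UMIs scaled to the same total in every sum) in WT 1 to 3 and at 22.1, 27.2, and 23.3 CPM in KO 1 to 3. The assay counts 3′ ends, so a *Ywhaz* UMI does not by itself show that exon 4 is present.

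CD4 T cells recognise peptides held by MHC class II molecules through a T cell receptor made of an α chain (*Trac*) and a β chain (*Trbc1*, *Trbc2*) in complex with CD3, and they direct other immune cells by cytokines and contact ligands. Naive cells recirculate between blood and lymph nodes with the help of homing receptors such as *Ccr7*, which antigen-experienced cells largely lose, and regulatory T cells, defined by the transcription factor *Foxp3*, restrain immune responses. In islets, CD4 T cells are best known from autoimmune diabetes.

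T cell receptor genes that the rule did not use marked the members. *Trbc2* was found in 95.7% of them and *Trac* in 78.1%, against 1.95% and 1.60% of the 2877 B cells of WT 2 and KO 2 (at least 2 UMIs of Cd79a and *Cd79b* together and none of Cd3, within the same limits). The median depth was 4484 UMIs and 1632 genes in a member and 5232 UMIs in these B cells. The members thus carried T cell receptor mRNA, and their assignment to CD4 rested on few molecules: 205 members had 1 *Cd4* UMI, 80 had 2, 44 had 3 or more, and the most was 12. Other T cells with no *Cd4* or Cd8 UMI numbered 557, against 622 CD8 T cells (*Cd8a* or *Cd8b1* and no *Cd4*, Cd79a, or *Cxcr6*), and how many of the former were CD4 T cells without a captured *Cd4* mRNA was not tested.

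The number of members differed widely between libraries of the same genotype. WT 1, WT 2, and WT 3 held 24, 102, and 0 members, and KO 1, KO 2, and KO 3 held 3, 190, and 10. As a share of kept barcodes, the values were 1.29% (95% exact Clopper-Pearson interval 0.825 to 1.91), 1.25% (1.02 to 1.51), and 0% in WT, where 0 of 3060 barcodes allows a share of up to 0.0980%, taken here and for every share of 0 as 3 counts of the total. In KO they were 0.0971% (0.0200 to 0.283), 2.90% (2.51 to 3.34), and 0.235% (0.113 to 0.431). These intervals and limits cover counting error only. WT 2 and KO 2 together held 292 of the 329 members (88.8%), so most values for the cells as a whole are values of 2 mice.

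**Figure D1:**
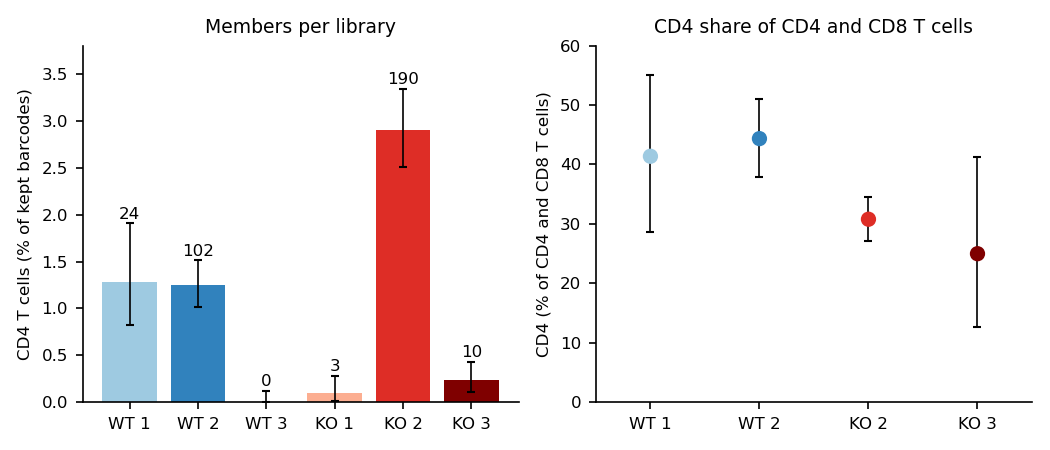
Left, CD4 T cells as a percentage of kept barcodes in each of the 6 libraries, with 95% exact intervals as error bars and the number of members above each bar. Right, CD4 T cells as a percentage of CD4 and CD8 T cells together in the 4 libraries with at least 10 cells of these classes together, with the same intervals. KO 2 has the highest share of kept barcodes at 2.90% and WT 3 has none, and on the right both WT libraries, at 41.4% and 44.3%, lie above KO 2 at 30.8% and KO 3 at 25%.

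The libraries had between 74083947 and 98294915 UMIs in all. Of 84 kept barcodes shared by any pair of libraries, at most 15 in a pair, none was a member in both. Near the limits of the rule, 32 members had 20% to 25% insulin UMIs and 30 barcodes outside had 25% to 30%, with 28 and 24 of them in KO 2. At the Cd3 limit, 16 members had exactly 2 UMIs, and 9 barcodes that met the rest of the rule had 1. The insulin limit removed 367 barcodes with 2 or more Cd3 UMIs, of which KO 2 held 313 (20.3% of its Cd3 barcodes) and WT 2 held 37 (6.51%).

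A small group of deep barcodes carried a large part of the members' RNA. Above 15000 UMIs stood 31 members (9.42%), 2 in WT 1, 13 in WT 2, and 16 in KO 2, and they held 52.6%, 46.7%, and 31.1% of the members' UMIs in those libraries. One WT 1 barcode with 98224 UMIs made up 39.0% of that library's sum. Above 15000 UMIs were also 4.34% of CD8 T cells, 8.71% of *Cxcr6* T cells (Cd3 as in the rule and a *Cxcr6* UMI), and 11.7% of B cells.

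The deep members showed transcripts of islet and myeloid cells beside those of T cells. Their median was 27683 UMIs and 5701 genes, against 4256.5 UMIs and 1583.5 genes in the 298 other members. Hormone transcripts (7 genes) took 22.9% of UMIs in the deep members and 12.5% in the others. Somatostatin (*Sst*) took 1.84% against 0.0455%, pancreatic polypeptide (*Ppy*) 5.50% against 0.340%, peptide YY (*Pyy*) 2.49% against 0.141%, and glucagon (*Gcg*) 2.76% against 0.900%. The complement gene *C1qa*, a macrophage marker, was found in 16 of 31 deep members (51.6%) and 15 of 298 others (5.03%), and lysozyme (*Lyz2*) in 10 (32.3%) and 18 (6.04%). *Trac* was found in 83.9% and 77.5% of the 2 sets and *Trbc2* in 93.5% and 96.0%. A doublet score put 18 members among the top-scored barcodes of their libraries, 9 in WT 2 and 9 in KO 2. These were kept. The number of top-scored barcodes was fixed in advance from library size, at 0.8% per 1000 kept barcodes. It was 28 in WT 1, 535 in WT 2, and 342 in KO 2. Because free RNA and barcodes with several cells cannot be told apart from expression in these sums, results are given with all members and again with members to 15000 UMIs.

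**Figure D2:**
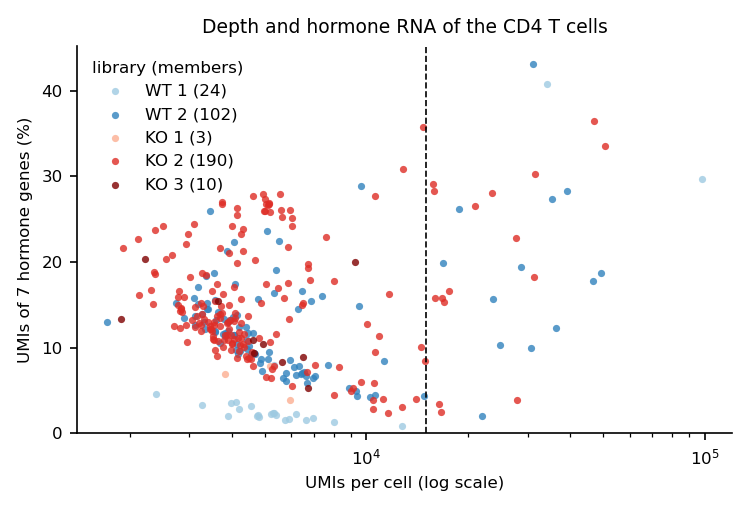
Each point is 1 CD4 T cell, with its UMIs on a log x axis and the percentage of its UMIs from 7 hormone genes on the y axis, coloured by library, and the dashed line stands at 15000 UMIs. The 31 members to the right of the line come from WT 1, WT 2, and KO 2, and pooled they have 22.9% hormone UMIs against 12.5% to the left.

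Hormone mRNA accordingly led the list of most abundant transcripts. *Ins2* took 7.76% of the members' UMIs, *Ppy* 2.30%, *Ins1* 1.78%, *Gcg* 1.61%, islet amyloid polypeptide (*Iapp*) 1.21%, *Pyy* 1.04%, and *Sst* 0.729%, and 5 of the 20 most abundant genes were mitochondrially encoded. Of the remaining 8, the nuclear noncoding RNAs *Gm42418* (2.92%) and *Malat1* (2.20%) led, followed by *Tpt1* (0.602%), thymosin β4 (Tmsb4x, 0.552%), and the ribosomal protein genes Rps24, Rplp1, Rpl13, and Rps29. In the order WT 1, WT 2, KO 1, KO 2, and KO 3, which is used for all lists of 5 values, insulin took 1.11, 9.05, 5.12, 11.7, and 8.01% of the members' UMIs. WT 1 was lowest and KO 2 highest, and the 2 genotypes overlapped.

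Markers of other cell types varied between libraries in the same sums. All 9 macrophage markers had a UMI in some member, and their summed level was 135, 1392, 0, 528, and 160.0 CPM. The 12 B cell markers other than the excluded Cd79a summed to 167, 1476, 0, 619, and 180.0 CPM, and the 7 endothelial markers to 27.8, 300.0, 66.9, 284, and 160.0 CPM. Of 9 markers of innate-like, NK, and γδ T cells, 5 had a UMI, and they summed to 3.97, 215, 334, 50.8, and 0 CPM. *Cxcr6*, which the rule excluded, the γδ T cell receptor genes *Tcrg-C1* and *Tcrg-C2*, and the NK receptor gene *Ncr1* stood at 0. The γδ T cell receptor gene *Trdc* was found in 4 members (1.22%), against 0.104% of B cells and 0.965% of CD8 T cells. With all members, WT 2 was the highest library for macrophage, B cell, and endothelial markers, and KO 1, with 3 cells, was the highest for innate-like markers. With members to 15000 UMIs, KO 2 was above WT 2 for all 3 lists, at 551 against 455 CPM for macrophage, 784 against 622 CPM for B cell, and 311 against 76.1 CPM for endothelial markers.

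Genes of helper and regulatory function set the members apart from B cells by cell share. *Izumo1r* (folate receptor 4, found on regulatory and anergic CD4 T cells) was detected in 43.5% of members, 0.730% of B cells, and 6.43% of CD8 T cells, whose median was 5637.5 UMIs. The transcription factor *Maf* reached 36.2%, 3.13%, and 2.09% of the same 3 classes. For the checkpoint receptor *Ctla4* the shares were 32.8%, 2.61%, and 6.91%, and for the co-stimulatory receptor *Tnfrsf4* (OX40) 30.7%, 1.67%, and 2.89%. *Cd40lg*, the CD40 ligand by which helper cells activate B cells, was found in 15.8% of members, in 0 of 2877 B cells (which allows a share of up to 0.104%), and in 1.13% of CD8 T cells. Each of these genes was found in a higher share of members than of either other class, although CD8 T cells and B cells were the deeper cells. After each cell was thinned to 1000 UMIs, with no cell of these classes left out, *Izumo1r* was found in 14.3%, 0.174%, and 2.09%, *Maf* in 14.6%, 0.695%, and 0.161%, and *Ctla4* in 10.9%, 0.278%, and 0.965% of the same classes.

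Genes of naive and of antigen-experienced cells were both found among the members. *Lef1*, a transcription factor of naive T cells, was found in 55.9% of members and 79.1% of CD8 T cells, and *Ccr7* in 36.5% and 54.2%. B cells held *Lef1* in 1.67% and *Ccr7*, a gene that B cells also express, in 24.8%. *S100a4*, a calcium-binding protein of antigen-experienced T cells, was found in 17.9% of members, 3.86% of CD8 T cells, and 4.69% of B cells. The inhibitory receptor *Pdcd1* (PD-1) was found in 16.7%, 1.29%, and 0.521%. Thinned to 1000 UMIs, *Lef1* was found in 22.2% of members and 26.7% of CD8 T cells, and *S100a4* in 10.9% and 0.965%, so that the order of the 2 classes was as without thinning.

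Transcription factors of helper subsets differed in how far their shares stood above those in B cells. *Foxp3* was found in 39 members (11.9%, interval 8.57 to 15.8), against 5 of 2877 B cells (0.174%). *Gata3*, the regulator of type 2 helper cells, which naive T cells also express, was found in 21.9% against 0.209%, and *Ikzf2* (Helios) in 38.9% against 4.34%. *Tbx21*, the regulator of Th1 cells, was found in 2.13% of members and 1.04% of B cells. *Bcl6*, the regulator of follicular helper cells, was found in 6.99% and 5.39%, and *Cxcr5*, a receptor that B cells themselves express, in 7.29% against 16.5%. The shares of *Tbx21*, *Bcl6*, and *Cxcr5* were thus close to or under those in B cells. In CD8 T cells, *Foxp3* was found in 0.643%, *Gata3* in 11.7%, and *Ikzf2* in 17.0%. *Tbx21* was found in 2.25% of CD8 T cells, *Bcl6* in 4.02%, and *Cxcr5* in 4.18%. *Gata3* and *Ikzf2* were thus not particular to the members among T cells, and *Tbx21* was as frequent in CD8 T cells.

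Cytokine mRNA was rare. Interferon-γ (*Ifng*) was found in 20 members (6.08%, interval 3.75 to 9.23), interleukin-21 (*Il21*) in 12 (3.65%), and interleukin-10 (*Il10*) in 10 (3.04%), against 0.139%, 0.0348%, and 1.88% of B cells. *Il4* was found in 4 members, and *Il13*, *Il17f*, and *Il22* in 1 each. *Il5*, *Il17a*, and *Il23r* had no UMI, and 0 of 329 cells allows a share of cells with a UMI of up to 0.912%.

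The comparison with CD8 T cells asked which genes other than *Cd4*, *Cd8a*, and *Cd8b1* differed between the 2 classes within the same mice. UMIs were summed per library and class in WT 1, WT 2, KO 2, and KO 3, the libraries with at least 10 cells of both, and the sums were tested in edgeR by quasi-likelihood, with the library as a block. A gene was called at a false discovery rate (FDR, the Benjamini-Hochberg adjusted p) under 0.05 where its log2 fold change was also above 0.1 in size. Positive log2 fold changes are higher in CD4 T cells. Of 6832 genes, 16 were called higher in CD4 T cells (0.234%) and 29 lower (0.424%), of which *Cd4*, *Cd8a*, and *Cd8b1* are the rule's own. With cells to 15000 UMIs, 122 of 4153 genes were higher (2.94%) and 176 lower (4.24%).

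Several genes listed for regulatory T cells were higher in CD4 T cells. *Izumo1r* stood at 67.5, 146, 134, 189, and 20 CPM in the members and at 6.27, 11.2, 18.4, and 7.04 CPM in CD8 T cells of WT 1, WT 2, KO 2, and KO 3. Every library with both classes was higher in CD4 T cells, and the log2 fold change with its SE was 3.03 ± 0.27 (FDR = 0.000439, edgeR quasi-likelihood). KO 3 had 10 members and 50003 UMIs in all, so that 20 CPM there rests on very few UMIs. Thinned to 1000 UMIs, 0 of these 10 members had an *Izumo1r* UMI. *Tnfrsf4* stood at 123, 242, 267, 122, and 20 CPM in the members and 2.09, 22.4, 7.82, and 3.52 CPM in CD8 T cells, a log2 fold change of 3.45 ± 0.31 (FDR = 0.000439). *Ctla4* was at 99.2, 110.0, 802, 83.4, and 0 CPM against 16.7, 16.2, 15.3, and 21.1 CPM, with no UMI in the 10 members of KO 3 and a log2 fold change of 2.10 ± 0.35 (FDR = 0.0225). Of the 16 genes listed for regulatory T cells, 10 passed the filter on low counts and 4 were called higher (*Tnfrsf4*, *Izumo1r*, *Ctla4*, and the actin-capping protein gene *Capg*). Because a gene can pass the filter through the class where it is high, the direction of all listed genes that passed is not given for such lists. Of the memory and activation genes, 15 were tested and 0 called. Among cells to 15000 UMIs, 12 of them were tested and 5 called higher (*Lgals1*, *Tnfsf8*, *S100a6*, *Itgb1*, and *Vim*), against 2.94% of all genes tested. With cells to 15000 UMIs, *Izumo1r*, *Tnfrsf4*, and *Ctla4* fell below the filter, and their levels over all libraries pooled were 209, 226, and 137 CPM in CD4 and 17.4, 9.41, and 14.4 CPM in CD8 T cells. In that fit 4 regulatory T cell genes passed the filter and were called higher.

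Other genes called higher were the RabGAP gene *Tbc1d4* at 71.5, 295, 334, 162, and 40 CPM against 27.2, 41.1, 18, and 17.6 CPM (2.35 ± 0.30, FDR = 0.00473) and *Tox*, a factor needed for CD4 lineage development in the thymus, at 51.6, 96.1, 201, 82.6, and 60 CPM against 16.7, 22.4, 21.8, and 24.6 CPM (1.63 ± 0.24, FDR = 0.0106). The tetraspanin gene *Tspan32* (1.52 ± 0.25) and the inflammatory caspase gene *Casp1* (2.27 ± 0.39) were also called. Glucagon (*Gcg*, 2.62 ± 0.46) and transthyretin (*Ttr*, 2.39 ± 0.43) were among the genes called higher as well, and all 8 endocrine genes tested had positive values with a median of 2.15. The median of the endocrine genes was 0.42 with cells to 15000 UMIs, where 7 of 8 were positive. *Gcg* (1.32) and *Ttr* (1.31) remained called there, and *Ppy* was called higher as well. The part of endocrine transcripts in the other results was not tested.

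Several cytotoxic genes were lower in CD4 T cells. *Nkg7*, a granule protein of killer cells, stood at 23.8, 25.5, 134, 27.0, and 0 CPM in the members and 123, 237, 364, and 412 CPM in CD8 T cells (-3.45 ± 0.34, FDR = 0.000765). The chemokine *Ccl5* was at 155, 46.3, 0, 68.3, and 0 CPM against 765, 1363, 680.4, and 296 CPM (-3.66 ± 0.44, FDR = 0.00251). *Ly6c2* was nearly absent, with 0, 1, 0, 4, and 0 UMIs in the members, against 117, 224, 507, and 517 CPM in CD8 T cells (-6.45 ± 0.31, FDR = 5.71e-06). In each of the 4 libraries all 3 genes were lower in CD4 T cells. The killer lectin receptor gene *Klrd1* (-4.59 ± 0.50), cathepsin W (*Ctsw*, -3.35 ± 0.37), the chemokine *Xcl1* (-3.72 ± 0.34), *Cd7* (-3.60 ± 0.37), *Plac8* (-4.76 ± 0.54), and *Fam241a* (-2.79 ± 0.30) were lower too, and *Klre1* and *Gm43698* had 1 UMI each in the members. Of the 13 listed cytotoxic genes, 6 passed the filter and 4 were called lower (*Ctsw*, *Nkg7*, *Ccl5*, and *Klrd1*).

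Among lineage factors, *Runx3*, which silences *Cd4* in the CD8 lineage, was at 59.5, 39.4, 66.9, 49.2, and 60 CPM in the members and 134, 212, 119.7, and 162 CPM in CD8 T cells and was called lower (-1.72 ± 0.27, FDR = 0.0172). *Zbtb7b* (ThPOK), the factor that fixes the CD4 lineage, was found in 16.1% of members, 4.34% of CD8 T cells, and 8.13% of B cells, and at 31.8, 23.2, 66.9, 23.8, and 20 CPM in the members against 8.36, 8.73, 6.80, and 0 CPM in CD8 T cells. It was not called (log2 fold change 1.38 ± 0.32, FDR = 0.101).

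Naive and recirculation genes leaned toward CD8 T cells. With all cells, 0 of 15 tested were called and 15 of 15 had negative values (median -0.50). With cells to 15000 UMIs, 7 of 15 were called lower in CD4 T cells, among them *Foxp1*, *Il7r*, *Txk*, *Klf2*, *Ms4a4b*, and *Dapl1* (-1.57). In the same fit the co-stimulatory receptor genes *Icos* (2.06), *Tnfrsf18* (1.40), and *Cd28* (1.18) and the transcription factors *Ikzf2* (1.79) and *Runx1* (1.72) were higher in CD4 T cells. Ribosomal protein genes were lower in CD4 T cells, 1 of 80 called with all cells (median -0.68) and 71 of 80 with cells to 15000 UMIs (median -0.43). These counts depended on the libraries: without WT 2, 7 genes were called in place of 45, without KO 2, 13, and without WT 1, 140.

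The comparison with *Cxcr6* T cells, which express a chemokine receptor of tissue-resident T cells, used WT 1, WT 2, and KO 2. That class may hold *Cd4* or Cd8 UMIs. Of 7717 genes, 116 were called higher in CD4 T cells (1.50%) and 162 lower (2.10%), 4 of them rule genes. With cells to 15000 UMIs, 65 of 5723 were higher (1.14%) and 71 lower (1.24%). Without WT 2, 97 genes were called in all, and without WT 1, 457.

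Of the 16 regulatory T cell genes, 12 passed the filter and 4 were called higher in the CD4 T cells. *Foxp3* stood at 111, 56.8, 0, 18.3, and 0 CPM in the members and at 0, 21.8, and 0 CPM in *Cxcr6* T cells of WT 1, WT 2, and KO 2 (2.07 ± 0.46, FDR = 0.0171). *Izumo1r* was at 0, 8.72, and 40.5 CPM in *Cxcr6* T cells (2.63 ± 0.31, FDR = 6.61e-05), *Tnfrsf4* at 0, 116, and 17.9 CPM (1.74 ± 0.32, FDR = 0.00457), and *Ctla4* was also called (1.47 ± 0.30). All 4 were higher in CD4 T cells in 3 of 3 libraries. The co-stimulatory receptor gene *Cd28* (0.91 ± 0.19), *Slamf6* (0.74 ± 0.19), *Hif1a*, the hypoxia-inducible factor (1.19 ± 0.18), *Tspan32* (1.59 ± 0.25), *Tbc1d4* (1.55 ± 0.24), and *Maf* (0.93 ± 0.23) were higher too.

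Of the 13 cytotoxic genes, 8 passed the filter and 6 were called lower in CD4 T cells than in *Cxcr6* T cells. *Nkg7* was at 331, 256, and 450.4 CPM in *Cxcr6* T cells (-3.70 ± 0.21, FDR = 5e-09), *Klrd1* at 268, 144, and 232 CPM (-4.74 ± 0.26), and *Ly6c2* at 152, 244, and 541 CPM (-6.35 ± 0.27), and each was lower in CD4 T cells in all 3 libraries. The γδ T cell receptor gene *Trdc* had 0, 4, and 0 UMIs in the members of these libraries and 23, 153, and 49 in *Cxcr6* T cells, and *Tcrg-C1* had no UMI in the members and 8, 84, and 20 in *Cxcr6* T cells. Among the other genes called were the interleukin-18 receptor *Il18r1* (-2.27 ± 0.28), the chemokine receptor *Ccr2* (-2.45 ± 0.34), the interleukin-7 receptor *Il7r* (-1.32 ± 0.16), *Cd226* (-1.96 ± 0.25), *Cd160* (-2.99 ± 0.38), and *Runx3* (-1.74 ± 0.21) lower in CD4 T cells. The myeloid gene *Lyz2* (2.49 ± 0.27) and *Spp1* (1.75 ± 0.27) were called higher in CD4 T cells, and the endocrine genes *Pyy*, *Chga*, and *Chgb* only with all cells. Of the 9 macrophage markers, 7 passed the filter and 1 was called, *Lyz2*. With cells to 15000 UMIs, 2 passed and 0 were called. *Lyz2* was higher in 2 of 3 libraries and fell below the filter with cells to 15000 UMIs.

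**Figure D3:**
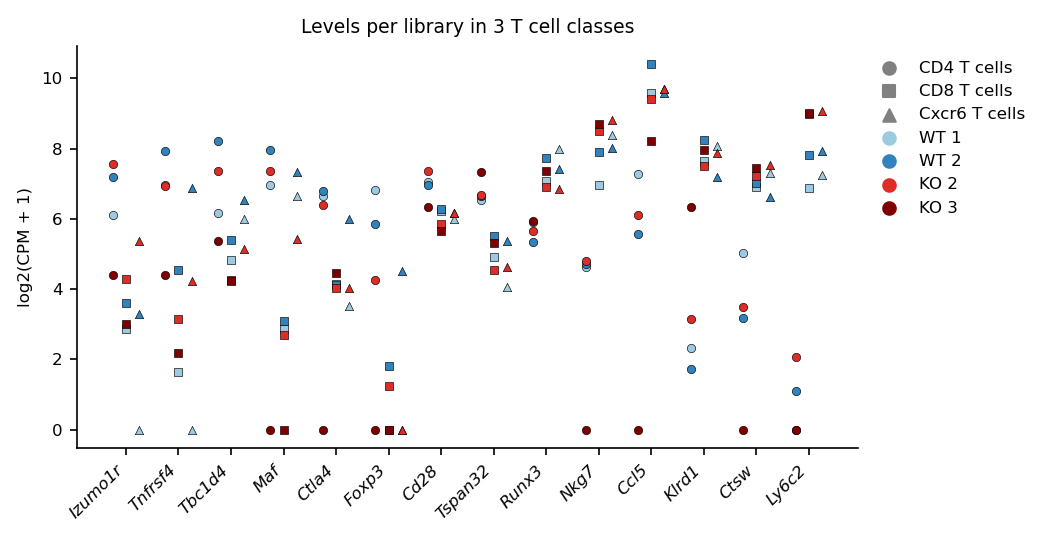
Level of 14 genes, as log2 of CPM plus 1 on the y axis, with 1 point per library for CD4 T cells (circles), CD8 T cells (squares), and *Cxcr6* T cells (triangles). *Izumo1r* and *Tnfrsf4* are higher in the CD4 T cells of most libraries, and *Nkg7*, *Klrd1*, *Ctsw*, and *Ly6c2* are lower, with *Ly6c2* at most at 3.18 CPM in CD4 T cells.

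Within the CD4 T cells, members with a *Foxp3* UMI were compared with the other members in WT 2 (22 and 80 cells) and KO 2 (13 and 177 cells), the libraries with at least 10 cells of both sets, with the library as a block. Positive log2 fold changes are higher in *Foxp3* cells, and *Foxp3* itself is a description. Their median depths over all libraries were 5666 and 4443.5 UMIs. Of 6059 genes, 38 were called higher (0.627%) and 28 lower (0.462%), *Foxp3*, *Ins1*, and *Ins2* among them. With members to 15000 UMIs, 45 of 3417 were higher (1.32%) and 26 lower (0.761%). The fit had 1 residual degree of freedom, so p values lean on the spread shared over genes, and another tool, DESeq2, called 4 genes: *Foxp3*, *Il2ra*, *Ikzf2*, and *Penk*.

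Genes listed for regulatory T cells other than *Foxp3* were higher in the *Foxp3* cells for 8 of the 11 that passed the filter, and for 9 of 10 with members to 15000 UMIs. *Il2ra* (CD25), the high-affinity receptor chain for interleukin-2, had 22 and 15 UMIs in the *Foxp3* cells of WT 2 and KO 2 and 5 and 10 in the far more numerous others. After scaling these were 106 and 150.4 CPM against 8.22 and 10.0 CPM (3.32 ± 0.45, edgeR FDR = 3.78e-10). *Ikzf2* was at 672 and 602 CPM against 146 and 166 CPM (2.0 ± 0.31, FDR = 1.1e-07). Both libraries were higher in *Foxp3* cells for both genes. *Tnfrsf4* (1.81 ± 0.32), *Tnfrsf9* (1.98 ± 0.40), *Tnfrsf18* (GITR, 1.54 ± 0.32), *Ctla4* (1.43 ± 0.34), *Capg* (1.75 ± 0.33), and *Gpr83* (2.28 ± 0.57) were higher too.

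Outside that list, *Penk*, the precursor of enkephalins, had 50 and 6 UMIs in the *Foxp3* cells of WT 2 and KO 2 and 4 and 2 in the others (4.11 ± 0.47, FDR = 4.68e-15). With members to 15000 UMIs, *Penk* fell below the filter of this comparison. *Areg*, the tissue-repair factor amphiregulin, had 12 and 4 and 0 and 4 UMIs (3.11 ± 0.55), and the interferon-γ receptor gene *Ifngr1* was higher (1.58 ± 0.32). Naive genes were lower for 5 of 15 tested: *Lef1* (-1.99 ± 0.41), *Tcf7* (-1.77 ± 0.37), *Klf2* (-1.73 ± 0.35), *S1pr1* (-1.59 ± 0.39), and *Dapl1* (-2.41 ± 0.59). The same number was called with members to 15000 UMIs.

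A few barcodes carried part of the remaining calls. *Lyz2* had 598 UMIs in the *Foxp3* cells of WT 2, of which 597 were in 1 barcode, and the myeloid gene *Tyrobp* had 89 in WT 2 and 0 in KO 2. Endothelial genes were lower in *Foxp3* cells for 4 of 6 tested, with *Flt1* at 0 UMIs in the *Foxp3* cells and at 91 and 73 in the others of WT 2 and KO 2. With members to 15000 UMIs, 1 endothelial gene was left to test and was not called, while 4 of 8 endocrine genes (*Iapp*, *Pyy*, *Gcg*, and *Ppy*) were called lower in *Foxp3* cells. *Pyy* was called higher with all members (1.02 ± 0.16), so its direction turned (-1.17).

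**Figure D4:**
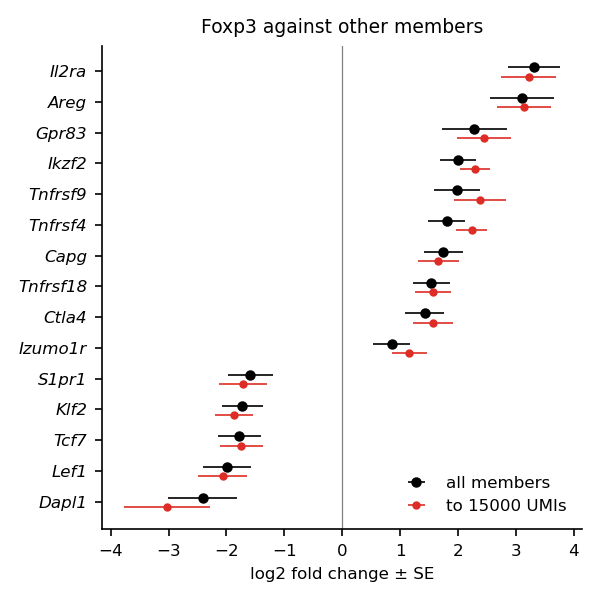
Log2 fold changes with their SE as error bars for selected genes within the CD4 T cells (x axis), for *Foxp3* cells against the others, in black with all members and in red with members to 15000 UMIs. *Il2ra* (3.32) and *Ikzf2* (2.0) lie to the right of zero and *Tcf7* (-1.77) and *Lef1* (-1.99) to the left.

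Between genotypes, the number of members was not separable from the difference between mice. The share of kept barcodes averaged 0.844% ± 0.731 (SD, n = 3) in WT and 1.08% ± 1.58 (n = 3) in KO (2-sided exact permutation test, p = 0.8, where 3 against 3 can give no less than 0.1). The direction turned without KO 2 (KO minus WT -0.678 percentage points), without WT 3 (-0.187), and with insulin under 10% of UMIs (-0.200). The insulin share of the members' UMIs averaged 5.08% ± 5.61 (n = 2) in WT and 8.27% ± 3.28 (n = 3) in KO (exact permutation p = 0.6, at best 0.2), and without WT 1 the difference turned from 3.19 to -0.780 percentage points.

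Relative to CD8 T cells, CD4 T cells made up a smaller share in KO 2 and KO 3 than in WT 1 and WT 2. They were 41.4% of 58 cells in WT 1 (exact interval 28.6 to 55.1), 44.3% of 230 in WT 2 (37.8 to 51.0), 30.8% of 617 in KO 2 (27.2 to 34.6), and 25% of 40 in KO 3 (12.7 to 41.2). KO 1, with 3 CD4 and 1 CD8 T cells, and WT 3, with 0 and 2, were left out for having fewer than 10 cells of both classes together. Both lay in the opposite direction. Among the 4 other libraries the genotypes did not overlap, and the difference of -15.0 percentage points had an exact permutation p of 0.333, the smallest that 2 against 2 allows. It lay between -17.9 and -12.1 when each library was left out in turn and was -12.7 with cells to 15000 UMIs. The CD4 part of this share depends on capture of a *Cd4* UMI, and 557 T cells had neither a *Cd4* nor a Cd8 UMI.

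The share of members with a *Foxp3* UMI was 16.7%, 21.6%, 6.84%, and 0% in WT 1, WT 2, KO 2, and KO 3, where 0 of 10 cells allows up to 30%. WT was higher than KO in every pair of libraries, by 15.7 percentage points on average (exact permutation p = 0.333, the smallest possible). After each cell was thinned to 1000 UMIs the values were 16.7%, 5.88%, 0.526%, and 0%, a mean difference of -11.0 (exact permutation p = 0.333) that ranged from -16.4 without WT 2 to -5.62 without WT 1. At 2000 UMIs they were 12.5%, 8.91%, and 4.76%, with KO 3 left out for having fewer than 10 cells (exact permutation p = 0.667, the smallest possible). In thinned B cells of WT 2 and KO 2 the share was 0% (up to 0.104%), and the 3 members of KO 1, none with a *Foxp3* UMI, were left out. As a gene in the fit, *Foxp3* had 28, 49, 23, and 0 UMIs in WT 1, WT 2, KO 2, and KO 3, a log2 fold change of -1.93 ± 0.50 in KO against WT, and an edgeR FDR of 0.273, which did not pass. Of the 16 regulatory T cell genes, 11 passed the filter and 0 were called.

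The genotypes were compared over genes in WT 1, WT 2, KO 2, and KO 3, and the 3 members of KO 1 were outside this fit. Positive log2 fold changes are higher in KO. Of 7072 genes, 2 were called higher (0.0283%) and 4 lower (0.0566%). With members to 15000 UMIs, 3 of 4114 were higher (0.0729%) and 1 lower (0.0243%). The split was 1 higher and 4 lower with DESeq2 size factors, and leaving out WT 1, WT 2, KO 2, or KO 3 gave 35, 39, 52, and 49 calls. In sums over so few cells, fewer cells of a type and less RNA per cell cannot be told apart.

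Most genes called between genotypes were not T cell genes. *Gcg* stood at 6276, 7943, 23364, and 27398 CPM in WT 1, WT 2, KO 2, and KO 3, a log2 fold change of 1.84 ± 0.30 (edgeR FDR = 0.0146) that was 3.29 with members to 15000 UMIs. *Sst* stood at 18424, 12195, 2044, and 440.0 CPM (-3.49 ± 0.51, FDR = 0.0109), and with members to 15000 UMIs at 293, 363, 525, and 440.0 CPM, where the direction turned (0.66, not called). The neuronal growth gene *Gap43* (9, 39, 1, and 0 UMIs, -3.42 ± 0.56), the myeloid enzyme arginase-1 (*Arg1*, 39, 55, 11, and 0 UMIs, -3.11 ± 0.56), and retinol-binding protein 4 (*Rbp4*, 342, 546, 238, and 1 UMIs, -2.66 ± 0.48) were lower in KO, and all 3 fell below the filter with members to 15000 UMIs. There, *Ttr* (3.19) and *Pyy* (2.12) joined *Gcg* as called higher and *Penk* (-3.25) was called lower, and for *Pyy* the direction was the opposite with all members (-2.72 ± 0.65, FDR = 0.21, not called).

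The targeted gene was not called in these cells. *Ywhaz* stood at 234, 293, 535, 208, and 200 CPM, with a log2 fold change of -0.32 ± 0.34 (FDR = 1) and -0.54 with members to 15000 UMIs. Of the 7 genes of the 14-3-3 family, adaptor proteins that bind phosphorylated partners, 6 were tested and 0 were called, with a median of -0.19 and a range from -0.37 (*Ywhah*) to 0.08 (*Ywhag*). *Ywhae* was at 278, 263, 253, and 120.0 CPM and *Ywhab* at 127, 178, 159.6, and 100.0 CPM in WT 1, WT 2, KO 2, and KO 3.

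No list of T cell genes had a called member between genotypes, except for interferon response genes, which T cells share with other cells. T cell receptor genes were positive for 14 of 18 tested with a median of 0.37, and 7 of 18 with a median of -0.09 for members to 15000 UMIs. Naive genes were positive for 12 of 15 (median 0.60), then 10 of 15 (median 0.07). Co-stimulatory genes were positive for 3 of 8 (median -0.39) and memory genes for 6 of 17 (median -0.24), against a median of -0.05 over all genes tested. For members to 15000 UMIs, co-stimulatory genes were positive for 0 of 6 (median -0.58) and memory genes for 5 of 16 (median -0.37). The median over all genes tested was then -0.03.

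The summed level of interferon response genes was highest in KO 2, and 1 of 14 genes was called between genotypes. Interferons act through STAT and IRF factors to switch on antiviral genes such as *Isg15*, a ubiquitin-like protein, and *Ifit1* and *Ifit3*, which bind viral RNA. *Ifit3* had 1, 8, 136, and 1 UMIs in WT 1, WT 2, KO 2, and KO 3, or 3.97, 9.27, 108, and 20 CPM, and was called (log2 fold change 3.18 ± 0.52, edgeR FDR = 0.0146). *Isg15* stood at 19.8, 32.4, 297, and 0 CPM (2.84 ± 0.60, FDR = 0.0865) and *Irf7*, a factor that amplifies the response, at 19.8, 6.95, 75.4, and 20 CPM (2.43 ± 0.51, FDR = 0.0865), and neither was called. KO 2 was the highest library for all 3, while KO 3 had no *Isg15* UMI and lay between the WT libraries and KO 2 for *Ifit3*. The 14 genes of the list summed to 1004, 1498, 3399.8, and 2179.9 CPM with all members, so that KO 3 too lay above both WT libraries, and to 1934, 2238, 4597, and 2179.9 CPM with members to 15000 UMIs, where KO 3 lay between them. All 14 genes of the list had positive values with a median of 1.5, and 13 of 13 with a median of 1.12 and no call with members to 15000 UMIs, where *Ifit3* was below the filter.

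The cells that carried these transcripts were counted for 7 genes (*Isg15*, *Ifit1*, *Ifit3*, *Irf7*, *Rtp4*, *Usp18*, and *Oasl2*), chosen after their values were seen. Of CD4 T cells to 15000 UMIs, 4 or more of the 7 were detected in 46 of 174 in KO 2 (26.4%, exact interval 20.1 to 33.6), in 1 of 89 in WT 2 (1.12%), and in none of 22 in WT 1 or of 10 in KO 3, which allows up to 13.6% and 30%. The median depths were 5258.5, 4450, 4116.5, and 4790.5 UMIs in WT 1, WT 2, KO 2, and KO 3, so that KO 2 was the shallowest. Thinned to 1000 UMIs, *Isg15* was found in 0%, 7.84%, 20%, and 0% of these libraries' members, against 2.43% and 6.52% of the B cells of WT 2 and KO 2, and the 2 shares of 0 allow up to 12.5% and 30%. Cells with 4 or more of the 7 genes detected were thus a minority of the KO 2 CD4 T cells to 15000 UMIs. Thinned to 2000 UMIs, *Isg15* was found in 29.6% of KO 2 members, so such shares depend on depth.

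Other cells of KO 2 shared the pattern in part. CD8 T cells with 4 or more of the 7 genes were 108 of 408 in KO 2 (26.5%), 2 of 32 in WT 1, 0 of 125 in WT 2 (up to 2.40%), and 1 of 27 in KO 3. *Cxcr6* T cells were 22.0% in KO 2, 4.71% in WT 2, and 12.5% in WT 1. B cells reached 5.74% in KO 2 and at most 2.54% elsewhere, and macrophages of KO 2, at 6.72%, lay within the range of the other libraries (0% to 16.3%). Cells with 4 or more of the 7 genes were thus found in a high share of the CD4 T cells of KO 2 and in none of the 10 of KO 3, and for this share genotype and library cannot be told apart. The summed level of the 7 genes in CD4 T cells to 15000 UMIs was 117, 169.7, 947, and 220.0 CPM in WT 1, WT 2, KO 2, and KO 3, so that KO 3 lay above both WT libraries and far below KO 2.

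**Figure D5:**
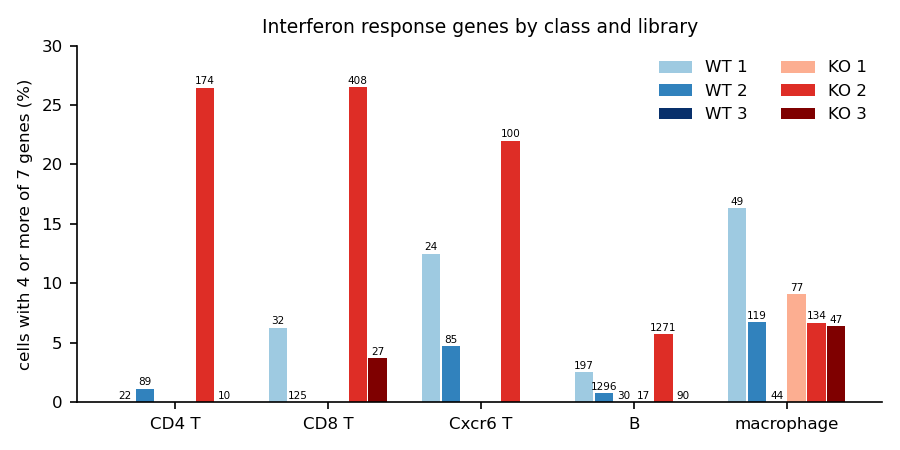
Percentage of cells with 4 or more of 7 interferon response genes, for cells to 15000 UMIs, by cell class and library, with the number of cells above each bar. KO 2 stands at 26.4% in CD4 and 26.5% in CD8 T cells and at 5.74% in B cells, and KO 3 has none among its 10 CD4 T cells.

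Upstream sequences of the interferon genes were searched for GAAA, any 2 bases, and GAAA again, the core that IRF and STAT complexes bind in interferon-stimulated response elements, on both strands and with overlaps counted. The windows ran from 250 bases before to 50 after each RefSeq gene start (build GRCm38.p6). Of the 14 list genes, 9 were matched by symbol, and 7 of these held the motif: *Isg15*, *Ifit1*, *Ifit3*, *Bst2*, *Gbp2*, *Ifi203*, and *Ifi206*. It was found for 1079 of 27025 genes in all (3.99%) and in 1131 of 32851 windows (3.44%). *Irf7* and *Oasl2* had no match, and a match describes letters only. The 250 bases before the start are shown for *Isg15*, *Ifit1*, and *Ifit3*, all 3 with their highest level in KO 2, 5′ to 3′ on the gene's strand, with matches to the motif or its reverse complement in capitals, for *Isg15* (chr4:156200819-156201068, minus strand), *Ifit1* (chr19:34640639-34640888, plus strand), and *Ifit3* (chr19:34583279-34583528, plus strand).
Isg15: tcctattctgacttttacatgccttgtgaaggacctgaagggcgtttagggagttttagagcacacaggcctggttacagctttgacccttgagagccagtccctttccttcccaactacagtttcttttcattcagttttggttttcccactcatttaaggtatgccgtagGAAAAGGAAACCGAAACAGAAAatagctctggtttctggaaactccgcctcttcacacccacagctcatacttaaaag
Ifit1: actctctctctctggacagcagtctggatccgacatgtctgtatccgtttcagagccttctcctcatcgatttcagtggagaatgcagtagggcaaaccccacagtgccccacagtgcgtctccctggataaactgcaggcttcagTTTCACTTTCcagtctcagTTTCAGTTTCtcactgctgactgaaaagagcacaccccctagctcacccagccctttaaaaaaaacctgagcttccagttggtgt
Ifit3: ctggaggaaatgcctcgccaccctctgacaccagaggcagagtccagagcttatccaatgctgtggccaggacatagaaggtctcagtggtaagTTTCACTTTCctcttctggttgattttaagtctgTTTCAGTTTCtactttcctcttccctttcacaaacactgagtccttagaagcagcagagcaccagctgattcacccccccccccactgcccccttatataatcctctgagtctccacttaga
In *Ifit3* and *Ifit1* 2 matches were found each, and in *Isg15* 3 that overlap. Their CPM in KO 2 were 297 (*Isg15*), 85.0 (*Ifit1*), and 108 (*Ifit3*), against at most 32.4, 20.9, and 9.27 CPM in WT. In KO 3 they were 0, 60, and 20 CPM.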

How the data were processed

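The authors deposited, for each of 6 libraries, a matrix of UMI counts per gene and barcode called as a cell, made per the submitters' processing notes with Cell Ranger 6.0.2 on mm10. Counts were used as deposited. Members and gene lists were chosen with earlier results of these data known. Counts of members were summed per library with Python 3.11.15 and scanpy 1.11.5. Sums of at least 10 cells were tested in R 4.3.3 with edgeR 4.0.16 (TMM scaling, filterByExpr, quasi-likelihood test, Benjamini-Hochberg adjustment, prior count 2), with the library as a block between cell classes. CPM in the text are UMIs scaled to the same total in every sum, and in the *Foxp3* comparison they are TMM-scaled. Shares were compared by 2-sided exact permutation over libraries. Each mouse gave 1 library, so p values between genotypes measure the spread between mice. Where the library was a block, p values measure how far the difference within a mouse varied from mouse to mouse. DESeq2 1.42.0, other filters, insulin limits, doublet removal, and left-out libraries were alternatives, and the limit of 15000 UMIs was added after the data were seen. Scripts were tested on simulated data with known changes. Barcodes were scored with Scrublet, and the top-scored share of each library was removed only in an alternative. Genes named are those of the lists, the 10 called genes of lowest p per direction within or between T cell classes, all genes called between genotypes, the 20 most abundant genes, and the 14-3-3 family. Some results on single genes and 1 planned comparison are not reported here. The 7 interferon genes counted per cell were chosen after their values were seen.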

Additional observations from a re-analysis of the deposited data

How the results depend on the processing

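Alternatives in which a gene fell below the filter on low counts, or had no adjusted p, are not counted in what follows. Of 533 values under an alternative, each of a single named gene that was called in its comparison, 438 kept direction and side of the threshold, 90 kept direction and lost the call, and 5 reversed. The last were *Sst* between genotypes with cells to 15000 UMIs (0.66), *Meg3* against *Cxcr6* T cells (-0.27) and *Pyy* between *Foxp3* and other cells (-1.17) under the same limit, *Tyrobp* between *Foxp3* and other cells with DESeq2 (-0.30), and *Sst* there with no library block (0.16). The 6 calls between genotypes became 1 with DESeq2, 35 with no filter, 49 with at least 20 cells, 84 with insulin under 10%, 0 with no insulin limit (159 genes at an unadjusted p under 0.05 in edgeR), and 1 without doublets. They ranged from 35 to 52 when 1 library was left out, a lone sample being assumed to vary like the others. The 45 calls against CD8 T cells became 106 with DESeq2, 524 with no filter, 20 with insulin under 10%, 298 with cells to 15000 UMIs, and 7 to 140 with 1 library left out. The 278 against *Cxcr6* T cells became 145 with DESeq2, 564 with no filter, 50 with no library block, 60 with at least 5 cells, 100 with insulin under 10%, 136 with cells to 15000 UMIs, and 97 to 457 with 1 library left out. The 66 of the *Foxp3* comparison became 4 with DESeq2 and 20 with no library block. Among genes not called, *Ywhaz* between genotypes turned to 0.0518 with insulin under 10%, and *Pyy* between genotypes to 2.12 with cells to 15000 UMIs. The share of kept barcodes turned to -0.200 with insulin under 10% and ranged from -0.678 to 0.725 with 1 library left out, and the insulin share from -0.780 to 7.15. The cause was not tested. Replicate numbers only name the mice: with pairing by number as a replicate block, the share of kept barcodes differed by 0.235 points, higher in KO in 2 of 3 pairs (exact sign-flip p = 0.75, at best 0.25). No replicate block could be fitted for genes, since 1 replicate number had 10 members in both genotypes. At least 5 cells added no library except against *Cxcr6* T cells, the *Foxp3* comparison with insulin under 10% could not be run, nor could it be fitted with a library left out. The libraries held 0 to 190 members, which limits every comparison, and 205 of 329 members rest on 1 *Cd4* UMI.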

Other observations

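Genes outside the comparisons above were also detected in the CD4 T cells. The proliferation gene *Mki67* was found in 6.69% of members, against 7.33% of B cells and 1.61% of CD8 T cells, and the median depths were 4484, 5232, and 5637.5 UMIs. The B cell genes *Cd79b* and *Ms4a1* were found in 3.95% and 1.22% of members although Cd79a was excluded by the rule. *Cxcr3*, a chemokine receptor of Th1 cells, was found in 15.8% of members, 14.3% of CD8 T cells, and 2.5% of B cells. *Ifi27l2a*, an interferon-induced gene, stood at 460.5, 690.4, 401, 1580, and 600.0 CPM in WT 1, WT 2, KO 1, KO 2, and KO 3, and was called higher in CD4 T cells than in *Cxcr6* T cells (log2 fold change 1.04 ± 0.21, edgeR quasi-likelihood FDR = 0.00914), in 3 of 3 libraries. It was the only positive gene of the 14 interferon response genes tested in that comparison, whose median was -0.38. With cells to 15000 UMIs, 8 of 14 were positive, with a median of 0.01.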
